A study of Mus musculus with 24 samples.

Results

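Mesenchymal stromal cells of the bone marrow were compared between wild type mice and homozygous Sh3bp2 knock-in mice (genotype Sh3bp2KI/KI, titled CBM), which model the jaw disease cherubism. The comparison rests on the 12 libraries titled mesenchymal, 6 for each genotype, out of 24 in the series. All came from female C57BL/6 mice aged 6 to 8 weeks. Marrow was grown as a stromal culture for 7 days, and cells bearing Sca1 but not the leukocyte protein CD45 were then sorted for RNA. The labels name no treatment beyond culture and sorting, and the groups differ in them by genotype alone. The labels do not state what the knock-in changes in the gene, whether wild type mice were littermates, or whether each library came from its own animal. The p-values therefore measure the spread between these libraries, which may be partly technical. The other 12 libraries hold CD45+Sca1+ cells of such cultures and were used here only to measure leukocyte RNA.

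Marrow stromal cells can mature into osteoblasts, which make bone, into adipocytes, which store fat, and into chondrocytes, which make cartilage. They also feed the blood system. CXCL12 and stem cell factor, secreted by stroma, hold and sustain blood stem cells, and stromal RANKL drives the formation of bone-resorbing osteoclasts while osteoprotegerin blocks it. SH3BP2 is an adaptor protein that binds the kinases SYK and SRC in immune and osteoclast lineage cells. The enzyme tankyrase marks it for degradation. In people, inherited changes of this adaptor underlie cherubism, in which inflamed tissue rich in osteoclast-like giant cells replaces jaw bone.

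Total counts ranged from 11771829 to 15826711 over the 12 libraries. Of 54232 gene identifiers, 13867 passed the filter on low counts and were tested. Levels are given as CPM, counts divided by the scaled library total and multiplied by 1000000. They stand in the order lowest, median and highest of the 6 libraries of a group. Summed levels of marker lists used library totals without that scaling. Fold changes are log2 values of knock-in over wild type, and adjusted p-values come from edgeR's quasi-likelihood test over all 13867 genes. The standard error (SE) is the size of the fold change divided by the square root of that test's F statistic. A gene is said to have risen or fallen where its adjusted p was under 0.05. The gene lists used below and their members were chosen with earlier results of these data known. A list's share beside that of all genes is therefore a description and no test of enrichment.

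The sorted cells carried stromal RNA. All 24 stromal markers were tested, and their summed level ran from 42856 to 65664 CPM in wild type and from 52153 to 78311 CPM in knock-in libraries. Col1a1, the main collagen of bone and stroma, had a mean of 15649 ± 5566 CPM in wild type against 18351 ± 6547 CPM in knock-in libraries (SD, n = 6 each). Of the 20 leukocyte markers, 14 were tested and none was called, with a summed level of 55.5 to 119 CPM against 58.6 to 175 CPM. Set against the CD45+ libraries, these markers put leukocyte RNA at 0.461% ± 0.1602 (SD) of wild type and 0.636% ± 0.385 (SD) of knock-in RNA over 6 libraries a group, a difference within the spread by an exact permutation test (two-sided, p = 0.323). Knock-in libraries 3, 4 and 5 had the highest shares, from 0.914% to 1.02%, and knock-in library 6 the lowest, 0.174%. Endothelial markers were present at a low and variable level. Their sum ran from 13.99 to 91.8 CPM in wild type and 22.4 to 135 CPM in knock-in libraries. Of the 12 endothelial markers 10 were tested, none was called, and their median log2 fold change was 0.76. No erythroid gene passed the filter, and 1 gene each did so for platelets, neutrophils and B cells.

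Sh3bp2 itself (ENSMUSG00000054520, chromosome 5, 34525838 to 34563641 in GRCm38, protein-coding) showed no difference past the threshold. Its levels were 6.47, 7.47 and 8.43 CPM in the wild type group and 6.22, 7.71 and 8.93 CPM in the knock-in group. The groups overlapped, with a log2 fold change of 0.039 (SE 0.12, edgeR adjusted p = 0.897). Since the labels do not say which part of the gene is altered, this level does not check the genotype. Ly6a, the gene of Sca1, used in the sort, stood at 0.16 (SE 0.23, edgeR adjusted p = 0.746) and Ptprc, the gene of CD45, at 0.12 (SE 0.53, adjusted p = 0.926). Tnf, the inflammatory cytokine, did not pass the filter on low counts.

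Libraries separated by genotype along the main axis of variation, with a small overlap. On the first principal component of the 500 most variable genes, which held 40% of their variance, wild type libraries lay between -27.7 and 2.93 and knock-in libraries between -1.49 and 25.4. Only wild type library 2 (2.93) lay above the lowest knock-in libraries, numbers 4 (-1.49) and 5 (2.76). The second component, with 25.2%, set wild type libraries 1 and 2 (23.4 and 22.4) apart from knock-in libraries 3, 4 and 5 (-14.2, -23.2 and -15.1).

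**Figure D1:**
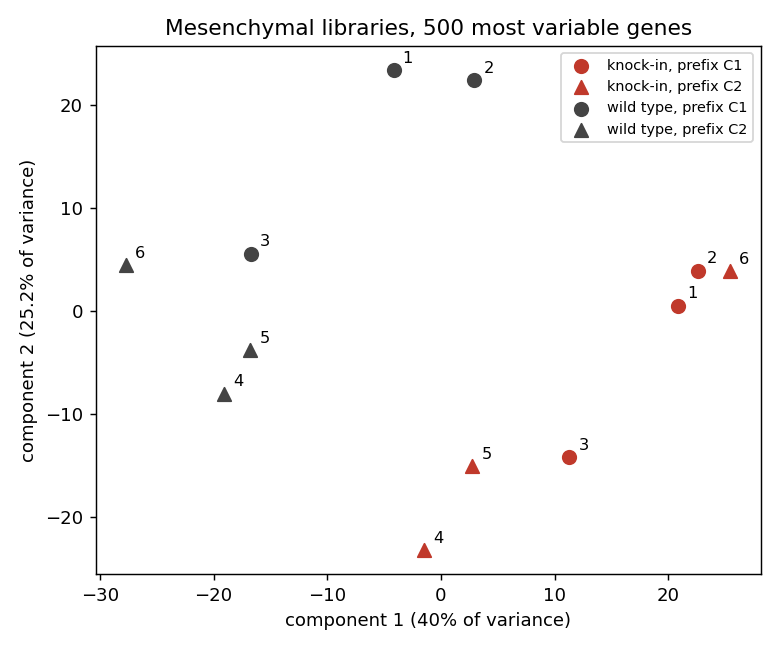
Principal components of the 12 mesenchymal libraries, from log2 CPM of the 500 most variable tested genes; each point is 1 library, coloured by genotype, with its replicate number, and its shape gives the file prefix. Knock-in libraries lie to the right, from -1.49 to 25.4 on component 1, and wild type libraries from -27.7 to 2.93.

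Between the genotypes 1008 genes differed, of which 477 rose and 531 fell. That is 7.27% of the genes tested, with 3.44% higher and 3.83% lower. Of the risers 118 (0.851% of all tested) and of the fallers 217 (1.56%) changed 2-fold or more, so larger changes lay more often on the falling side. The 6 knock-in libraries lay wholly above or below the 6 wild type libraries in 570 genes (4.11%), 303 with knock-in higher (2.19%) and 267 with knock-in lower (1.93%), and 484 of the 570 were called. The median log2 fold change over all tested genes was 0.0011. File names begin with C1 or C2, a prefix whose meaning no label gives. It splits each group into 3 and 3 libraries and was a term in the fit. With the 6 libraries of prefix C1 alone 391 genes were called (2.81%), and with those of C2 alone 76 (0.535%). Without knock-in library 1 the count was 646, and 555 genes stayed called whichever of the 12 libraries was left out.

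**Figure D2:**
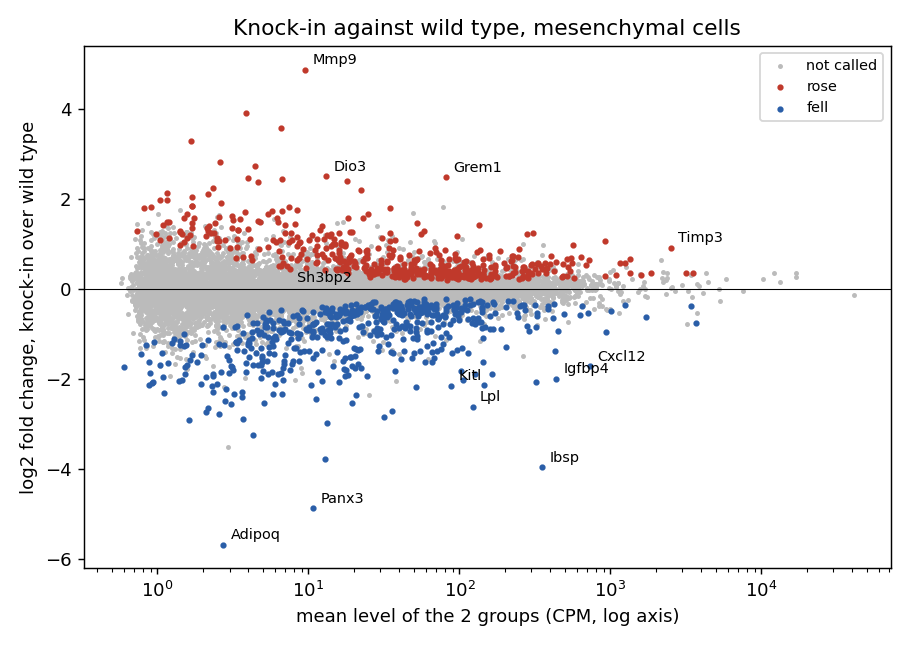
Log2 fold change of knock-in over wild type against mean level (CPM, log axis) for the 13867 tested genes; grey points were not called, red points rose (477) and blue points fell (531) by edgeR's test, and the labelled genes are among those named in the text. The largest fitted falls reach further from 0 than most rises, down to -5.69 for Adipoq.

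A set of fat lineage genes fell. Of the 28 listed adipocyte genes 20 were tested, 6 fell (30%, against 3.83% of all genes) and none rose, and in all 6 the groups did not overlap, as they did not for 1.93% of all genes with knock-in lower. The median over the tested members was -0.22, and 4 of the 20 lay above 0. In bulk RNA, fewer cells of a type and less RNA per cell cannot be told apart. Adipoq (ENSMUSG00000022878, chromosome 16, 23146536 to 23158028 in GRCm38), the gene of the fat cell hormone adiponectin, was at 1.94, 5.17 and 9.502 CPM in wild type, against 0, 0.0325 and 0.266 CPM with the knock-in. Every wild type library held it and the highest knock-in library stayed under the lowest wild type one, a log2 fold change of -5.69 (SE 0.58, edgeR adjusted p = 0.000135), where the size rests on very few knock-in counts. Lpl, the lipase that frees fatty acids from blood lipoproteins, was at 133, 218 and 256 CPM against 23.03, 30.2 and 64.7 CPM. It fell by 2.62 on the log2 scale (SE 0.26, edgeR adjusted p = 0.0002198). Upstream regulators moved with them. Zfp423, a transcription factor of committed fat precursors, fell by 1.62 (SE 0.16, edgeR adjusted p = 0.000135), and Cebpa, a factor that maintains the fat cell state, fell by 1.504 (SE 0.19, edgeR adjusted p = 0.000537). The lipid droplet coat gene Plin4 fell by 1.76 and the fatty acid carrier Fabp4 by 1.86. Pparg, the lineage's master regulator, was not called. Its levels were 77.02, 109.7 and 259.8 CPM in the wild type group and 29.8, 75.5 and 144 CPM in the knock-in group, at -0.697 (SE 0.44, edgeR adjusted p = 0.385). A pair of lipid-handling genes outside the list had among the smallest p-values: Angptl4, an inhibitor of lipoprotein lipase, fell by 1.49 (SE 0.12, edgeR adjusted p = 6.44e-05), and Abcg1, a cholesterol exporter, by 1.199 (SE 0.12, edgeR adjusted p = 0.000135). All 6 called members of the list kept their call whichever library was left out.

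Several genes of bone formation fell as well. Of the 26 listed osteoblast and mineralisation genes 18 were tested, 8 fell (44.4%, against 3.83% of all genes) and none rose, and the median was -0.61. Ibsp (ENSMUSG00000029306, chromosome 5, 104299171 to 104311469 in GRCm38), which encodes bone sialoprotein of the mineralising matrix, ran at 73.7, 671 and 1303 CPM in wild type, against 5.16, 22.2 and 137 CPM with the knock-in. The groups overlapped at their edges, since the lowest wild type library lay under the highest knock-in one, and the log2 fold change was -3.96 (SE 0.85, edgeR adjusted p = 0.0172). Panx3, a channel of maturing osteoblasts and chondrocytes, went the same way, from 1.56, 21.9 and 44.9 CPM to 0, 0.367 and 1.73 CPM, and fell by 4.88 (SE 0.86, edgeR adjusted p = 0.00717). Phex, an endopeptidase of bone cells that restrains phosphate loss, fell by 1.48 (edgeR adjusted p = 0.00847) and the homeobox factor Dlx3 by 1.74 (edgeR adjusted p = 0.0122). Runx2, the transcription factor that commits cells to the osteoblast lineage, was at 650.1, 724 and 925 CPM against 355, 469 and 763 CPM. It fell by 0.59 (SE 0.14, edgeR adjusted p = 0.0219), a call that was lost without wild type library 1 (adjusted p = 0.0542). The other 4 called members, Pth1r (-1.62), Alpl (-1.39), Sp7 (-1.37) and Spp1 (-0.63), which encode the parathyroid hormone receptor, alkaline phosphatase, osterix and osteopontin, each lost the call without any 1 of 8 to 10 of the 12 libraries, so 3 of the 8 held whichever library was left out. Of these 3, Ibsp lost its call without the filter on low counts (edgeR adjusted p = 0.0598) and Dlx3 in 1 fit of all 24 libraries (edgeR adjusted p = 0.0606). Runx2 also lost its call without the prefix term (edgeR adjusted p = 0.0557). In none of the 8 were the groups apart. Type I collagen was not called: Col1a1 stood at 0.26 (SE 0.26, edgeR adjusted p = 0.606).

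Cartilage genes included 1 regular fall. Of the 14 listed chondrocyte genes 9 were tested and 2 fell (22.2%, against 3.83% of all genes), with a median of -1.15. Comp, a cartilage and tendon matrix protein, was at 2.03, 2.92 and 3.55 CPM in the wild type group and 0.162, 0.319 and 0.7803 CPM in the knock-in group. The groups were apart, and it fell by 2.91 (SE 0.33, edgeR adjusted p = 0.000234). Contractile genes of pericytes and smooth muscle had a share near the background: 1 of 18 was called (5.56%, against 7.27% of all genes), the median was -0.044, and smooth muscle actin Acta2 stood at 0.12 (SE 0.12, edgeR adjusted p = 0.593).

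**Figure D3:**
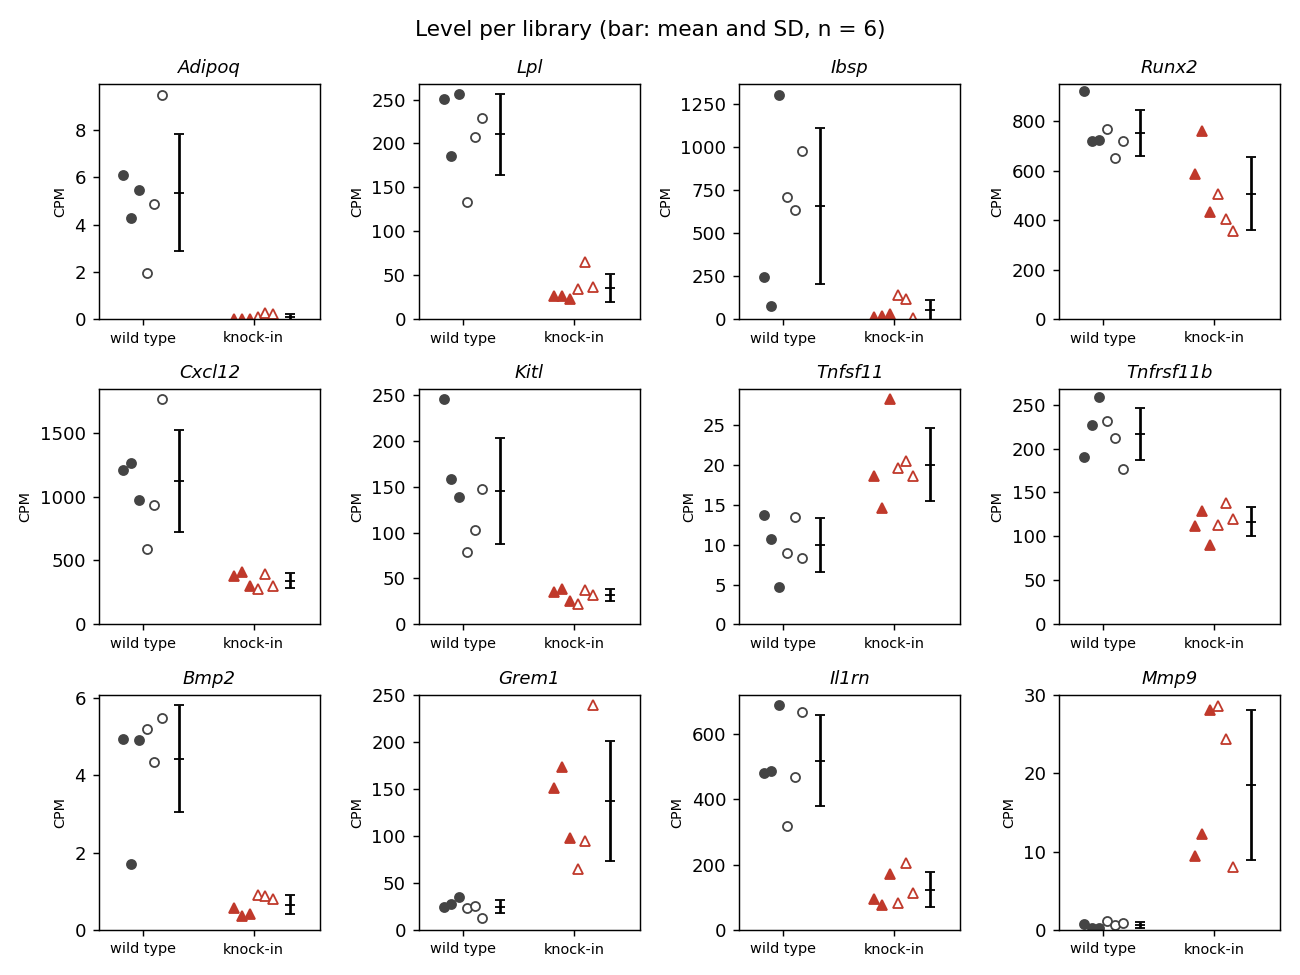
Level of 12 genes in each mesenchymal library (CPM, linear axes from 0); circles are wild type and triangles knock-in libraries, 6 each, filled for file prefix C1 and open for C2, and bars give the group mean with its SD. Adipoq, Lpl, Cxcl12, Kitl, Tnfrsf11b, Bmp2 and Il1rn lie lower and Tnfsf11, Grem1 and Mmp9 higher in every knock-in library than in any wild type one, while Ibsp and Runx2 overlap.

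Several stromal factors that support blood stem cells fell. Of the 22 listed niche factors 17 were tested, 6 fell and 2 rose, 47.1% against the 7.27% of all genes. Cxcl12 (ENSMUSG00000061353, chromosome 6, 117168535 to 117181367 in GRCm38), the chemokine that retains blood stem cells in marrow, was at 590.5, 1089.6 and 1767 CPM in wild type, against 277, 341 and 407 CPM with the knock-in. Kitl, which encodes stem cell factor, was at 78.7, 143 and 245 CPM against 22.3, 33.5 and 39.1 CPM. Every knock-in library lay below every wild type library for both genes. Cxcl12 fell by 1.72 (SE 0.22, edgeR adjusted p = 0.000793) and Kitl by 2.15 (SE 0.22, edgeR adjusted p = 0.000226). Angpt1, the ligand of the receptor TIE2 on stem cells and vessels, fell by 1.43 (SE 0.18, edgeR adjusted p = 0.000616), and Lepr, the leptin receptor that marks the perivascular stroma of marrow, fell by 1.099 (edgeR adjusted p = 0.0163), with groups that overlapped. The call on Lepr was lost without the low count filter (edgeR adjusted p = 0.0626) and in 1 fit of all 24 libraries (edgeR adjusted p = 0.105). Ptn, a heparin-binding growth factor also counted among these factors, rose by 1.45 (edgeR adjusted p = 0.00154). The other rise was Grem1, by 2.49 (edgeR adjusted p = 0.00104), a gene listed under BMP signalling as well. Vcam1, the adhesion molecule for blood cells, stood at -0.16 (SE 0.12, edgeR adjusted p = 0.498). Of the 8 called members 7 held whichever library was left out.

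Signals to osteoclasts shifted in opposite directions. Tnfsf11 (ENSMUSG00000022015, chromosome 14, 78277445 to 78308043 in GRCm38), which encodes the osteoclast inducer RANKL, was at 4.75, 9.84 and 13.7 CPM in the wild type group and 14.7, 19.1 and 28.4 CPM in the knock-in group. Tnfrsf11b, which encodes its decoy receptor osteoprotegerin, was at 177, 219.7 and 259 CPM against 90.7, 116 and 137 CPM. The groups did not overlap in either gene. Tnfsf11 rose by 1.01 (SE 0.23, edgeR adjusted p = 0.0187) and Tnfrsf11b fell by 0.89 (SE 0.11, edgeR adjusted p = 0.000464). With prefix C1 alone the changes were 1.06 and -1.04, and with C2 alone 0.94 and -0.75. In these smaller fits Tnfsf11 missed the threshold (edgeR adjusted p = 0.237 and 0.0914), as it did without the low count filter (edgeR adjusted p = 0.0506), while Tnfrsf11b passed in both. Receptors known to act upstream of RANKL in stroma moved in both directions, since Pth1r fell, as given above. Vdr, the vitamin D receptor, went from 50.9, 56.05 and 80.5 CPM to 90.1, 139 and 163 CPM and rose by 1.18 (SE 0.13, edgeR adjusted p = 0.000277), and Ptger4, a prostaglandin E2 receptor, rose by 0.95 (edgeR adjusted p = 0.00378). Tnfsf11, Tnfrsf11b, Vdr and Ptger4 were the 4 called members among 14 tested in the list of osteoclast inducing factors (28.6%, against 7.27% of all genes). Each held whichever library was left out. Csf1, the macrophage and osteoclast growth factor, stood at -0.18 (SE 0.103, edgeR adjusted p = 0.326), and Il6 at 1.24 (SE 0.42, edgeR adjusted p = 0.0887, and 0.0382 with DESeq2).

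Genes of osteoclasts themselves were read in these CD45-negative libraries too. Of the 20 listed osteoclast genes 14 were tested and 4 rose (28.6%, against 3.44% of all genes). Mmp9, a matrix metalloprotease of osteoclasts, was at 0.234, 0.663 and 1.11 CPM in wild type, against 8.07, 18.3 and 28.6 CPM with the knock-in and rose by 4.89 (SE 0.45, edgeR adjusted p = 0.000135). Acp5, the acid phosphatase TRAP used to stain osteoclasts, was at 0.362, 0.652 and 2.35 CPM against 2.69, 11.1 and 21.9 CPM, and Atp6v0d2, a subunit of their proton pump, at 0.189, 0.446 and 0.831 CPM against 1.38, 7.26 and 13.1 CPM. All 6 knock-in libraries lay above all wild type ones for these 3 genes, and the 3 highest were knock-in libraries 3, 4 and 5, which also had the highest leukocyte shares. Their means in CD45+ knock-in libraries were far higher, at 916 CPM for Mmp9, 780.1 CPM for Acp5 and 618 CPM for Atp6v0d2, against 123, 113 and 115 CPM in wild type ones. When each library's estimated leukocyte share was subtracted, Atp6v0d2 dropped out at the filter on low counts. Mmp9 (6.46, edgeR adjusted p = 0.000181) and Acp5 (3.69, edgeR adjusted p = 0.0301) remained called, in a fit where subtracted counts were stopped at 0. The subtraction uses a share from leukocyte markers in general, and the part of osteoclasts in particular was not tested. The transcription factor Prdm1, at 2.82 (edgeR adjusted p = 0.000135), and the sodium-proton exchanger Slc9b2, at 3.29 (edgeR adjusted p = 0.00856), were also among the 10 largest rises and stood at 126 and 294 CPM in CD45+ knock-in libraries; after the subtraction Slc9b2 could not be tested and Prdm1 stood at 2.98 (edgeR adjusted p = 0.00031). The fourth called member, the kinase gene Src, is expressed widely. It ran from 71.7 to 89.6 CPM in wild type and from 95.6 to 119 CPM in knock-in mesenchymal libraries, without overlap, and rose by 0.43 (SE 0.073, edgeR adjusted p = 0.00323). In 1 fit of all 24 libraries the calls on Src (edgeR adjusted p = 0.254) and Slc9b2 (edgeR adjusted p = 0.0558) were lost. Ctsk and Nfatc1, the collagen-cutting protease and the lineage factor of osteoclasts, which stroma also expresses, were not called (0.45, adjusted p = 0.385, and -0.022, adjusted p = 0.957, by edgeR).

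Ligands and inhibitors of BMP signalling, which drives bone and cartilage formation, moved in both directions. Of the 34 listed genes of BMP and activin signalling 30 were tested, 6 fell and 3 rose, 30% against 7.27% of all genes. Bmp2 was at 1.71, 4.92 and 5.47 CPM in the wild type group and 0.354, 0.677 and 0.9103 CPM in the knock-in group and fell by 2.78 (SE 0.29, edgeR adjusted p = 0.000135). Bmp4 fell by 1.77 (SE 0.36, edgeR adjusted p = 0.0123), and Gdf6, a ligand of joint formation, by 2.75 (SE 0.500, edgeR adjusted p = 0.00562). The secreted antagonist Grem1 went the other way. It was at 12.6, 24.9 and 35.2 CPM against 65.1, 125 and 239 CPM, with every knock-in library above every wild type one, and rose by 2.49 (SE 0.32, edgeR adjusted p = 0.00104). A different antagonist, Chrdl1, fell by 1.93 (SE 0.199, edgeR adjusted p = 0.000135). Inhba, the subunit of activin A, rose by 0.53, from 569.7 to 808 CPM on average (edgeR adjusted p = 0.0198), a call lost when all 24 libraries were fitted together (edgeR adjusted p = 0.348). The list's median was 0.054, and 6 of the 9 calls held whichever library was left out.

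Wnt pathway genes moved in both directions too. Of the 43 listed ligands, receptors and antagonists 35 were tested, 9 fell and 5 rose, 40% against the 7.27% of all genes. The falls included secreted antagonists. Sfrp2 was at 156, 224 and 331 CPM in wild type, against 32.1, 54.6 and 90.4 CPM with the knock-in, and Sfrp1 at 103, 225 and 269 CPM against 37.6, 41.6 and 81.9 CPM. Both were lower in every knock-in library than in any wild type one. Their log2 fold changes were -2.14 (SE 0.24, edgeR adjusted p = 0.000518) and -1.895 (SE 0.298, edgeR adjusted p = 0.00348). Frzb, another antagonist of the family, fell by 1.94. Among the receptors Fzd5 fell by 0.73 (edgeR adjusted p = 0.000776) and Lgr5, a receptor for the enhancer R-spondin, by 1.66 (edgeR adjusted p = 0.0223), the latter a call lost without the low count filter (edgeR adjusted p = 0.0759). The intracellular inhibitor Nkd2 fell by 0.91 (SE 0.12, edgeR adjusted p = 0.000631). The ligand Wnt5b rose by 0.95 (SE 0.13, edgeR adjusted p = 0.000682), Wnt2b by 1.48 and the antagonist Dkk2 by 1.85, the last 2 from wild type medians of 1.21 and 0.447 CPM and with groups that overlapped. Of the 14 called members 9 held whichever library was left out. By comparison, Hedgehog and Notch genes had 1 call of 16 (6.25%), the Hedgehog receptor Ptch1 (-0.54, edgeR adjusted p = 0.0161), which lost it in the fit of all 24 libraries (edgeR adjusted p = 0.0558).

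Other growth factor systems held single members with clear changes. Igfbp4, which binds insulin-like growth factors, was at 349, 746 and 976 CPM in the wild type group and 109, 167 and 281 CPM in the knock-in group and fell by 1.999 (SE 0.29, edgeR adjusted p = 0.00228). Irs1, the adaptor that carries the insulin and IGF1 receptor signal, fell by 0.94 (SE 0.12, edgeR adjusted p = 0.000409). These were 2 of 3 calls among 16 genes of that system (18.8%, against 7.27% of all genes). Of 23 fibroblast and platelet-derived growth factor genes 5 fell and 2 rose (30.4%). Fgfr2, a receptor with a role in bone growth, fell by 0.82 (SE 0.11, edgeR adjusted p = 0.000763), Hgf, a growth factor for epithelial and blood cells, by 1.41 (edgeR adjusted p = 0.00282), and the feedback inhibitor Spry1 by 0.62 (edgeR adjusted p = 0.00878), the last a call lost with all 24 libraries in the fit (edgeR adjusted p = 0.095). Hbegf, a ligand of the epidermal growth factor receptor, rose by 0.87 (edgeR adjusted p = 0.00418). In the nerve guidance list 4 of 19 genes rose and 1 fell (26.3%). Gfra1, the binding subunit for GDNF, rose by 1.92 (edgeR adjusted p = 0.00856), while Ret, its signalling partner, went from 43.7, 68.3 and 116 CPM to 17.4, 26.4 and 39.2 CPM and fell by 1.42 (SE 0.24, edgeR adjusted p = 0.00448). Ncam1, an adhesion molecule that can also bind GDNF, rose by 0.97, from 377 to 745 CPM on average (edgeR adjusted p = 0.00378). Tbx3, a transcription factor of limb and mammary patterning, rose by 1.21 (SE 0.15, edgeR adjusted p = 0.000409) and was the 1 called gene of 26 patterning factors, a share of 3.85%.

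Matrix lists had medians near 0 with some called members. Of 22 tested collagens 1 rose and 4 fell (22.7%, against 7.27% of all genes), of which 1 held whichever library was left out, and the median was -0.030. Col15a1, a basement membrane collagen, fell by 1.11 (SE 0.24, edgeR adjusted p = 0.0162), with groups that overlapped, and lost its call without the low count filter (edgeR adjusted p = 0.0608). Timp3, an inhibitor of matrix metalloproteases, was at 1607, 1674 and 2052 CPM in wild type, against 2659.9, 3359 and 3819 CPM with the knock-in, and rose by 0.92 (SE 0.093, edgeR adjusted p = 0.000135). Syn3, a gene of synaptic vesicles that had the smallest p of all, rose by 1.29 (SE 0.069, edgeR adjusted p = 3.98e-07), from 33.8 to 82.8 CPM on average. Timp3 (chromosome 10, 86300372 to 86349506) lies inside Syn3 (chromosome 10, 86055125 to 86498896), on the opposite strand, so without a stated strand setting in the counting the reads of the pair cannot be told apart with certainty. Loxl2, an enzyme that crosslinks collagen, rose by 0.71 (SE 0.088, edgeR adjusted p = 0.000409), and Fbln2, a fibre-associated glycoprotein, by 0.66 (edgeR adjusted p = 0.00711). Both lost their calls in the fit of all 24 libraries (edgeR adjusted p = 0.111 and 0.237). Mgp, an inhibitor of calcification, fell by 1.32 (SE 0.203, edgeR adjusted p = 0.00272) and Serpine2, a protease inhibitor, by 0.898 (edgeR adjusted p = 0.00228). Olfml2a, a secreted matrix protein, was among the most regular falls, from 39.8, 49.5 and 87.4 CPM to 4.07, 6.69 and 14.8 CPM (-2.84, SE 0.25, edgeR adjusted p = 0.000135), and Spon1, a secreted adhesion protein, among the most regular rises, from 3.35, 4.97 and 10.9 CPM to 24.6, 29.6 and 37.6 CPM (2.41, SE 0.23, edgeR adjusted p = 0.000135).

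Immune lists gave calls in both directions. Il1rn (ENSMUSG00000026981, chromosome 2, 24336853 to 24351494 in GRCm38), which encodes the antagonist of the interleukin 1 receptor, was at 318, 483 and 689.8 CPM in the wild type group and 76.01, 104 and 205 CPM in the knock-in group. The groups did not overlap, and it fell by 2.07 (SE 0.28, edgeR adjusted p = 0.00151). Il1rl1, which encodes the receptor for interleukin 33 (0.95, edgeR adjusted p = 0.0115), and Tnfrsf9 (2.14, edgeR adjusted p = 0.00615), a co-stimulatory receptor of the TNF family, rose. With all 24 libraries in the fit Il1rl1 was not called (edgeR adjusted p = 0.0686). Of 16 tested genes of class I antigen presentation 4 fell and 1 rose (31.2%, against 7.27% of all genes). Nlrc5, the activator of these genes, was at 32.3, 48.3 and 59.5 CPM against 16.2, 20.2 and 23.3 CPM and fell by 1.23 (SE 0.14, edgeR adjusted p = 0.000302). The class I heavy chain H2-D1 fell by 0.51 (SE 0.101, edgeR adjusted p = 0.00844), though the H2 genes share sequence and their counts can be split between them. Of 33 interferon-stimulated genes 1 fell, the GTPase Iigp1 (-1.45, edgeR adjusted p = 0.00937). That share is 3.03%, against 3.83% of all genes lower and 7.27% called either way. Iigp1 lost its call with all 24 libraries in the fit (edgeR adjusted p = 0.0644) and without the prefix term (edgeR adjusted p = 0.051). Yet 30 of the 33 lay below 0, with a median of -0.47, which was -0.17 with prefix C1 alone and -0.73 with C2 alone. The members of highest level, Irgm1 and Ddx58, peaked in wild type library 6, at 134 and 114 CPM. Their wild type medians were 61.3 and 65.4 CPM, and with C1 alone both lay above 0 (0.10 and 0.087). How far the shift of the list rests on that library was not tested. Signalling from Toll-like receptors to NF-kB gave 1 call in 35 genes (2.86%). The acute phase genes Hp, haptoglobin (-2.18, edgeR adjusted p = 0.002702), and Serpina3g, a protease inhibitor (-1.69, edgeR adjusted p = 0.00109), were among 4 falls in 8 tested genes of that kind (50%, against 3.83% of all genes).

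Chemokine genes rose and fell in equal number, and the complement gene C3 rose. C3, the central complement protein, was at 0.935, 1.03 and 1.699 CPM in wild type, against 3.84, 6.45 and 16.7 CPM with the knock-in and rose by 2.74 (SE 0.34, edgeR adjusted p = 0.000464). Its level in CD45+ knock-in libraries was 184 CPM, and after the leukocyte subtraction it stood at 2.79 (edgeR adjusted p = 0.00255). Cxcl5, which attracts neutrophils, was at 0.725, 1.02 and 2.34 CPM against 2.99, 4.88 and 12.1 CPM and rose by 2.47 (SE 0.400, edgeR adjusted p = 0.002702), and its relative Cxcl1 rose by 1.31 (edgeR adjusted p = 0.0129, and 0.0505 in the fit of all 24 libraries). Ccl9, a chemokine for myeloid cells, fell by 1.55 (SE 0.22, edgeR adjusted p = 0.00141), and the scavenging chemokine receptor Ackr4 by 2.04 (SE 0.37, edgeR adjusted p = 0.00746). With Cxcl12 and Cxcl16 (0.65, edgeR adjusted p = 0.0188) these made 3 rises and 3 falls among 11 tested genes of the chemokine list (54.5%, against 7.27% of all genes).

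Runs of 3 or more neighbouring tested genes called in 1 direction were found in 7 places, 4 of rises and 3 of falls. The falling runs held Il1rn with Hnmt and Psd4 on chromosome 2, Iigp1 on chromosome 18 and Enc1 on chromosome 13. On chromosome 14, from 56082166 to 56234656 in GRCm38, the 4 adjacent tested genes Mcpt8, Gzme, Gzmd and Gzmc rose together. They encode serine proteases best known from the granules of immune cells. Gzmd was at 3.46, 9.56 and 10.2 CPM in the wild type group and 20.9, 36.7 and 46.3 CPM in the knock-in group, Gzme at 6.42, 14.6 and 25.96 CPM against 31.3, 54.4 and 72.7 CPM and Gzmc at 1.17, 1.97 and 3.01 CPM against 8.29, 11.1 and 15.4 CPM. No knock-in library overlapped a wild type one for any of the 4. The log2 fold changes were 2.45 for Gzmc (edgeR adjusted p = 0.000135), 2.21 for Gzmd (edgeR adjusted p = 0.0008099), 1.797 for Gzme (edgeR adjusted p = 0.00138) and 2.25 for Mcpt8 (edgeR adjusted p = 0.00401). Their levels in CD45+ knock-in libraries were lower than in the mesenchymal ones, from 0.779 CPM for Mcpt8 to 9.48 CPM for Gzme. These granzymes resemble each other closely, so reads may have been split or dropped among them. On chromosome 12 the imprinted gene Dio3, whose enzyme inactivates thyroid hormone, was at 1.64, 3.96 and 5.46 CPM against 11.2, 21.4 and 38.9 CPM and rose by 2.51 (SE 0.33, edgeR adjusted p = 0.000898). The noncoding RNA Dio3os beside it rose by 1.67 (edgeR adjusted p = 0.0207), a call lost without wild type library 6 or knock-in library 3 (adjusted p up to 0.0536). Dio3os is annotated on the strand opposite to Dio3, and since the strand setting of the counting is not given, reads of the pair may not be fully told apart. The granzymes Gzmd and Gzme, Mcpt8 and Dio3os were singled out after their values were seen.

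**Figure D4:**
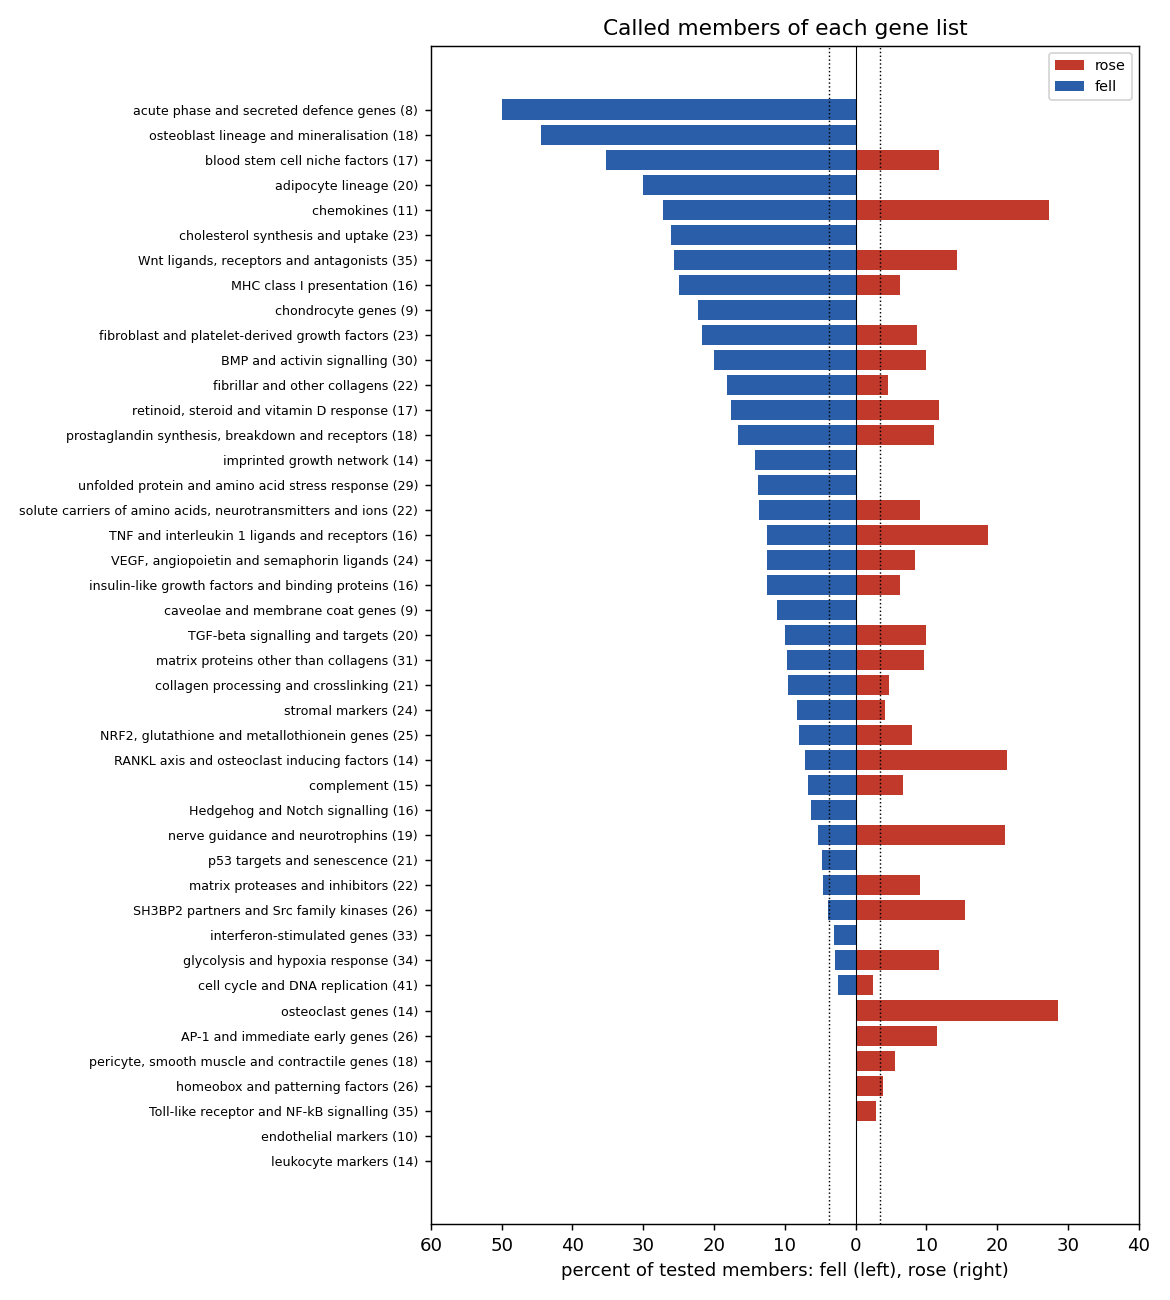
Share of the tested members of each gene list that rose (red, to the right) or fell (blue, to the left) in knock-in mesenchymal cells, in percent of tested members, with the number tested beside each name, for lists with 5 or more tested genes; dotted lines mark 3.44% higher and 3.83% lower, the shares of all 13867 genes. Falls without rises are seen for the acute phase (4 of 8), osteoblast (8 of 18), adipocyte (6 of 20) and cholesterol (6 of 23) lists, among others. The lists were chosen with earlier results of these data known.

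Cholesterol synthesis genes lay lower, and some passed the test. Of 24 listed genes 23 were tested, all 23 had a log2 fold change below 0, 6 fell (26.1%, against 3.83% of all genes), and the median was -0.42. The shift was uneven between prefixes, at a median of -0.15 for C1 alone and -0.67 for C2 alone. Mvd, which makes the isoprenoid building block isopentenyl diphosphate, was at 7.39, 9.36 and 15.8 CPM in wild type, against 4.07, 4.59 and 6.79 CPM with the knock-in and fell by 0.96 (SE 0.19, edgeR adjusted p = 0.00878). Fdft1, the enzyme of squalene synthesis, fell by 0.49 (SE 0.099, edgeR adjusted p = 0.00903), and Pmvk, a kinase of the same pathway, by 1.02 (SE 0.22, edgeR adjusted p = 0.0151). Hmgcs1, an early enzyme of the pathway, fell by 0.701 (edgeR adjusted p = 0.0216), a call lost without knock-in library 5 (adjusted p = 0.0502) or without the low count filter (adjusted p = 0.0762), and Idi1, which isomerises the building block, by 0.92 (edgeR adjusted p = 0.0335), a call lost without any 1 of 7 libraries.

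The sequence before the start site is shown for 3 of the genes that fell together in this pathway, from RefSeq on GRCm38.p6, since genes of the pathway are known to share promoter elements. Each line gives the 250 bases before the annotated start on the gene's own strand, 5′ to 3′, with matches to a sterol regulatory element (TCACNCCAC) or a CCAAT box (CCAAT) on either strand in capitals.
Hmgcs1, chr13:119690101-119690350, plus strand: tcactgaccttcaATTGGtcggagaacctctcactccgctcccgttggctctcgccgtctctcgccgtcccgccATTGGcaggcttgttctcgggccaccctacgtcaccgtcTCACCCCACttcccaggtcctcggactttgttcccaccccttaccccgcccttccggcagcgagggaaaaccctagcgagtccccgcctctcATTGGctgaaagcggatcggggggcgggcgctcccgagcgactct
Mvd, chr8:122443423-122443672, minus strand: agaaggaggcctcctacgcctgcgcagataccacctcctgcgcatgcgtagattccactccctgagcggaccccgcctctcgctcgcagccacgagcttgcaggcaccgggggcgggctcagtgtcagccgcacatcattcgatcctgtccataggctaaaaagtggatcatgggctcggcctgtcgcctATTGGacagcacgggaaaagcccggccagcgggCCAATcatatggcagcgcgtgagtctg
Idi1, chr13:8885356-8885605, plus strand: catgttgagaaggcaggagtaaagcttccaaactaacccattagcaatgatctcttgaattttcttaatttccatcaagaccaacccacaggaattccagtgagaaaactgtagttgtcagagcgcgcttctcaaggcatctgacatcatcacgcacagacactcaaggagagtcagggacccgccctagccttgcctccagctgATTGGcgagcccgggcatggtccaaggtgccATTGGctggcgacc
Hmgcs1 held 1 sterol regulatory element and 3 CCAAT boxes, written ATTGG where they lie on the other strand. Mvd and Idi1 held 2 CCAAT boxes each and no match to the sterol element. Pmvk, whose sequence is not shown, held 1 CCAAT box in its window from 89454291 and 0 in that from 89459321. Neither Pmvk window matched the sterol element. Promoter windows were at hand for 16 of the 23 tested members. All 16 held a CCAAT box in at least 1 window, against 40.7% of 10001 tested genes with a window. The sterol element was found in 1 of the 16 (6.25%) and in 1.2% of all. The boxes are a property of the promoters and were not tested against the fold changes.

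Stress, redox and metabolic lists held calls in both directions. Of 34 glycolysis and hypoxia genes 4 rose and 1 fell, a share of 14.7%. Ndrg1, a hypoxia and stress response gene, rose by 1.15 (SE 0.22, edgeR adjusted p = 0.00931), and Ddit4, an inhibitor of the growth kinase mTOR, by 0.597 (edgeR adjusted p = 0.00264). Mgst1 and Mgst3, microsomal glutathione transferases, fell by 1.44 and 1.37 (edgeR adjusted p = 0.00301 and 0.00509), while Txnrd1, a thioredoxin reductase, rose by 0.400 (edgeR adjusted p = 0.0161, and 0.0679 with all 24 libraries in the fit). Of 29 genes of the unfolded protein and amino acid response 4 fell and none rose. That is 13.8%, against 3.83% of all genes lower and 7.27% called either way. Yet 17 lay above 0, and the median was 0.15. The knock-in libraries lay wholly higher in 6 members, against 2.19% of all genes, and wholly lower in 2, against 1.93%. None of the 6 was called. Of the falls, Creld2, a chaperone-like protein of the secretory pathway (-0.64, edgeR adjusted p = 0.0168), held whichever library was left out. Of 17 tested genes of the retinoid, steroid and vitamin D list 2 rose and 3 fell (29.4%), with a median of -0.104. They included Aldh1a2, which makes retinoic acid (-1.83, edgeR adjusted p = 0.0189, and 0.0624 without the low count filter), and Cyp26b1, which breaks it down (-1.52, edgeR adjusted p = 0.00307). Among 26 immediate early genes Ier3, Ier5 and Dusp1 rose, by 0.86, 0.65 and 0.91. These were 11.5%, against 3.44% of all genes higher and 7.27% called either way, and the list's median was -0.024. Dusp1 lost its call without the low count filter (edgeR adjusted p = 0.0692). Proliferation genes gave 2 calls of 41 (4.88%): the cyclin gene Ccnd2 rose by 0.57 (SE 0.081, edgeR adjusted p = 0.00107, and 0.0506 with all 24 libraries in the fit) and Ccnd1 fell by 0.73 (edgeR adjusted p = 0.04704), the latter not holding without any 1 of 8 libraries. The proliferation marker Mki67 stood at -0.087 (SE 0.196, edgeR adjusted p = 0.848).

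Partners of SH3BP2 gave 5 calls among 26 tested genes (19.2%), 4 higher and 1 lower. Fyn, a kinase of the Src family, was at 77.5, 177 and 236 CPM in the wild type group and 226, 293 and 471 CPM in the knock-in group and rose by 0.88 (SE 0.19, edgeR adjusted p = 0.0148). Its groups overlapped, and the call was lost without the low count filter (edgeR adjusted p = 0.0614). Fyn and Src were the 2 members whose call held whichever library was left out. Caveolae, the membrane pits in which such kinases gather, gave 1 call of 9 (11.1%, against 7.27% of all genes): the coat gene Cavin1 fell by 0.44 (SE 0.094, edgeR adjusted p = 0.0129, and 0.231 with all 24 libraries in the fit). In the prostaglandin list the transporter Slco2a1, which takes prostaglandins up, fell by 1.12 (SE 0.19, edgeR adjusted p = 0.00472), and Abcc4, which exports them, rose by 0.51 (edgeR adjusted p = 0.0157). Among imprinted growth genes Plagl1 fell by 0.73 (SE 0.101, edgeR adjusted p = 0.000812) and Mest by 1.54 (edgeR adjusted p = 0.0219, and 0.0767 without the low count filter). The imprinted noncoding RNA H19 was at 44.7, 82.1 and 181 CPM against 9.696, 35.1 and 44.3 CPM. Its groups did not overlap, but it missed the threshold, at -1.55 (SE 0.44, edgeR adjusted p = 0.05496), and passed it without the prefix term (edgeR adjusted p = 0.046), with all 24 libraries (edgeR adjusted p = 0.0386) and with DESeq2 (adjusted p = 0.012).

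The region around Sh3bp2 on chromosome 5 held no larger share of called genes than the whole. Within 10 Mb on either side 134 genes were tested and 7 were called (5.22%), 1 higher and 6 lower, against 7.27% of all genes. Within 5 Mb of it the count was 4 of 102 (3.92%) and within 20 Mb 10 of 207 (4.83%). The count within 10 Mb was 4 without wild type library 1, 4, 5 or 6 or knock-in library 1, and 10 without knock-in library 6. Of the 10 nearest tested neighbours 1 was called, Tnip2, an inhibitor of NF-kB, which lies 30 kb before Sh3bp2. It was at 11.6, 14.97 and 19.3 CPM in wild type, against 10.6, 11.3 and 11.8 CPM with the knock-in and fell by 0.42 (SE 0.11, edgeR adjusted p = 0.03998), a call lost without any 1 of 8 libraries. On the other side Add1, at 48 kb, stood at -0.022 (SE 0.062, edgeR adjusted p = 0.878). By chromosome the share of called genes ran from 5.46% (chromosome 7) to 10.9% (chromosome 14).

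The largest changes also included genes outside the lists. Among the 10 largest falls, beside those described, were Negr1, a neuronal adhesion molecule (-3.79, lost without wild type library 1, knock-in library 1 or knock-in library 3), Wdr72 (-3.24), Kng1, a kininogen (-2.99), and Pgm5, an adhesion-associated relative of phosphoglucomutase (-2.899), with edgeR adjusted p-values from 0.000763 to 0.02301. Marc1, a mitochondrial reductase, fell by 2.54 (SE 0.26, edgeR adjusted p = 0.000135) and the scaffold gene Ppfia2 by 1.85 (SE 0.19, edgeR adjusted p = 0.000135). Pde3b, a phosphodiesterase in insulin signalling, rose by 1.47 (SE 0.13, edgeR adjusted p = 0.000135), from 15.3, 29.7 and 33.5 CPM to 55.8, 78.2 and 96.8 CPM. The rule for named genes gave 157 called genes, and 156 of them could be fitted within both prefixes, Negr1 being the exception. All 156 had the same sign in C1 and C2, a description only, since they were chosen on all 12 libraries.

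**Figure D5:**
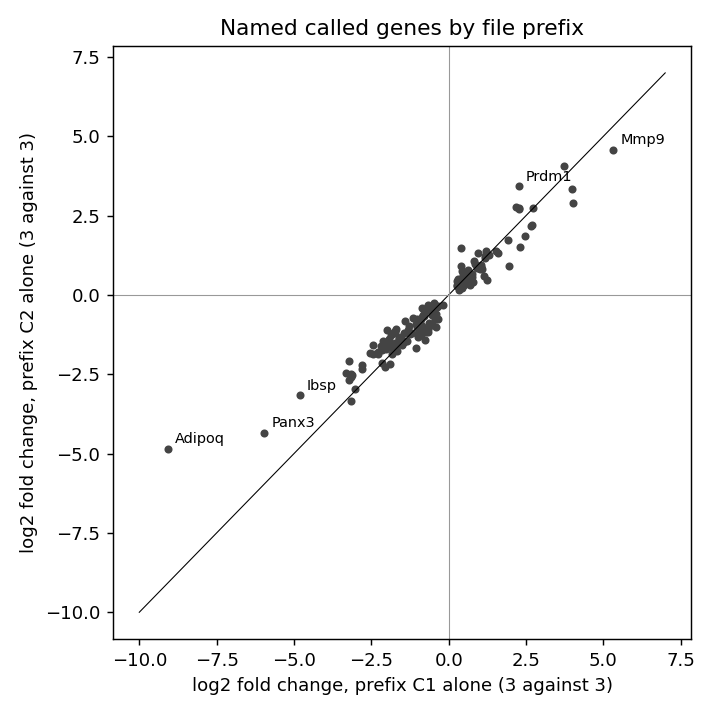
Log2 fold change of knock-in over wild type with the 6 libraries of file prefix C1 alone (x axis) and of C2 alone (y axis), for the called genes named by rule among the largest changes, the smallest p-values and the lists, where both fits tested them; the line marks equal values. All 156 points have the same sign on both axes, and the genes were chosen on all 12 libraries.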

How the data were processed

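RNA of 24 sorted mouse cell samples was sequenced from ribosomal RNA depleted, stranded libraries, and the 12 mesenchymal ones are compared here. Per the submitters' processing notes HTSeq 0.9.1 and DESeq2 1.20.0 were used, along with the quality tools FastQC 0.11.7 and MultiQC, on build GRCm38 (mm10). The deposited values are the authors' raw counts per gene, whole numbers with no scaling; the strand setting of the counting is not given in the sources used here. The files held 0 counts in rows that name no gene. Of 54232 gene identifiers 54165 matched the annotation. Symbols and positions came from GENCODE M21 (GRCm38) and promoter sequence from RefSeq (GRCm38.p6).

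Low genes were dropped with filterByExpr at a minimum count of 10 and a total of 15, library sizes were adjusted by TMM, and genotype was tested in edgeR 4.0.16 (R 4.3.3), a robust quasi-likelihood fit with file prefix and genotype as terms and Benjamini-Hochberg adjustment at 0.05. Some items are not reported here. No pair of libraries was identical. The leukocyte share is the median over 19 markers of a library's level relative to the CD45+ libraries of its genotype. On simulated counts with the same sizes, 43.3% of 1.5-fold, 83.6% of 2-fold and 92.4% of 4-fold changes were recovered.

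Named genes are Sh3bp2, its near neighbours and a few fixed ones, the 10 largest changes and 5 smallest p-values each way, and up to 5 members of each of 49 lists. The members and lists were chosen with earlier results of these data known. Genes outside that rule (for example Fabp4, Frzb, Lgr5, Dkk2, Wnt2b, Inhba, Cxcl16, Alpl, Sp7, Spp1, Pparg, Il6 and H19) were named after their values were seen. Alternatives were DESeq2 1.42.0, no low count filter, no prefix term, a replicate block, each prefix alone, all 24 libraries, subtraction of the leukocyte share, other marker settings and region windows, and leaving out each library.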

Additional observations from a re-analysis of the deposited data

Results flagged for a closer look

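In 270 groups of 6 values checked (CPM of the 134 genes named with values, and the leukocyte share), 17 (6.3%) held 1 library whose gap to the nearest other was, as a share of the group's range, above Dixon's critical value, and chance alone gives about 1 in 20.

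Library 6 of each group accounted for 10 of the 17. In wild type it was the highest for C3 (1.699 CPM, next 1.204), Fdft1 (84.6 CPM, next 63.7), Hmgcs1 (288 CPM, next 170.2), Iigp1 (19.6 CPM, next 9.57), Kng1 (53.7 CPM, next 24.9) and Mvd (15.8 CPM, next 9.76). It was the lowest for Ccnd2 (338 CPM, next 398). Cholesterol genes Fdft1, Hmgcs1 and Mvd were among these, and Hmgcs1 kept its call without that library. In the knock-in group it was the highest for C3 (16.7 CPM, next 8.57), Il1rl1 (37.01 CPM, next 25.2) and Mki67 (528 CPM, next 312).

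The other 7 were single cases. The value was the highest for Dkk2 in wild type library 2 (2.26 CPM, next 0.692), Lpl in knock-in library 5 (64.7 CPM, next 36.8), Mgst3 in wild type library 2 (8.65 CPM, next 5.54), Plagl1 in wild type library 1 (87.1 CPM, next 68.3), Timp3 in wild type library 3 (2052 CPM, next 1737) and Vdr in wild type library 2 (80.5 CPM, next 58.7), and the lowest for Bmp2 in wild type library 2 (1.71 CPM, next 4.35).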

How the results depend on the processing

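The count of 1008 called genes became 1664 with DESeq2 (all 1008 among them), 391 with prefix C1 alone and 76 with C2 alone, fits that have 6 libraries each. Leaving out 1 library gave 646 (without knock-in library 1) to 1036 genes. The replicate block gave 1258 genes, of which 897 were shared. Of the named genes it lost Ibsp (edgeR adjusted p = 0.0581), Col15a1 (0.0778), Aldh1a2 (0.125), Alpl (0.0629) and Tnip2 (0.0516) and gained H19 (0.0429). Deviations of same-numbered libraries of the genotypes correlated from 0.0391 to 0.382 within prefix, and those of differently numbered ones from -0.291 to 0.194. No label says that the numbers pair libraries, so the main fit did not pair them. Whether they do was not tested. Around Sh3bp2 the 7 called genes became 15 with DESeq2, 2 with C1 alone and 0 with C2 alone. Over all genes the same fits called 1664, 391 and 76, beside 1008 in the main fit. Within 5 Mb of Sh3bp2 the count was 4. Leaving out wild type library 1, 4, 5 or 6 or knock-in library 1 gave 4, the lowest count. Leaving out knock-in library 6 gave 10, the highest, and the cause was not tested. The difference in leukocyte share, 0.175 percentage points, ranged from 0.0988 to 0.267 without 1 library. It was 0.202 with a marker minimum of 50 CPM and 0.2302 as a mean over markers, and it missed 0.05 under each. No named gene that was called changed direction under any alternative run. Of the 134 genes named with values DESeq2 left 132 on the same side of the threshold and added 2 calls, while C1 alone lost 47 calls and C2 alone 91. The fit without a low count filter lost 17 calls, that of all 24 libraries 18. Depth limits genes of few counts, such as Adipoq, Slc9b2 and Panx3 in knock-in libraries.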
